A study of Mus musculus with 16 samples.

Results

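The 77 genes described here encode the mitochondrial ribosomal proteins that mouse symbols name Mrpl (large subunit) or Mrps (small subunit), followed by a number and at most a letter a to c. They were chosen by symbol alone, with no measured value, from 20409 genes in the deposited count table. Of the 77, 50 belong to the large subunit as assembled and 26 to the small subunit. Mrps18a and Mrps30 are counted with the large subunit, where the assembled ribosome holds them despite their names. Mrps36 is counted with neither, because its protein is now known as a component of the 2-oxoglutarate dehydrogenase complex.

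The cells were adult neural stem cells, the precursors of new neurons in the adult hippocampus, derived from males of the FVB/N strain, aged 8 to 10 weeks, by dissecting the dentate gyrus. The groups were wild-type (WT) and Fmr1 -/y (also called KO), which lack FMRP, an RNA-binding protein that represses translation and whose loss causes fragile X syndrome in people. Each group had 4 independently isolated cultures, grown in medium with 20 ng/ml each of FGF2 and EGF and given cycloheximide, a drug that stalls ribosomes on mRNA, at 100 µg/ml for 10 min before harvest. Every culture gave 1 library of cytoplasmic RNA and 1 library of ribosome footprints (RPF, stretches of mRNA shielded by a ribosome during RNase digestion), so there were 16 libraries. The controls were littermates, and the cells were expanded in culture from animals that lacked Fmr1 in all cell types.

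The mitochondrial ribosome translates the few messages of the mitochondrial genome, which code for core subunits of the respiratory chain and of ATP synthase. Its RNA comes from mitochondrial DNA, but all of its proteins come from nuclear genes, are made on cytosolic ribosomes and are imported. Some of these proteins descend from bacterial ribosomal proteins and others are found in mitochondria alone. Here 48 genes were of the bacterial type and 28 were specific to mitochondria. Footprints on these mRNAs therefore report cytosolic translation of mitoribosome parts, and not the work of mitochondrial ribosomes.

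Footprint libraries held 9430732 to 17220236 counts and RNA libraries 5343042 to 6600023. The 77 genes took 0.369% to 0.621% of footprint counts and 0.158% to 0.353% of RNA counts, with a median of 599 to 1018 counts per gene in footprints and 82 to 240 in RNA. Fmr1 itself, the check of the labels, had 129, 150, 149 and 149 CPM (counts scaled to library size) in the WT footprints and 24.1, 27.0, 12.7 and 14.7 CPM in the Fmr1 -/y footprints. Its RNA ran at 40.9, 107, 37.3 and 27.4 CPM in WT and 8.64, 30.9, 10.7 and 3.35 CPM in Fmr1 -/y, so that the genotypes overlapped in RNA and not in footprints. The stem cell markers Nes, Sox2, Vim and Fabp7 were present in all libraries, Prom1 was listed at 0 TPM (a level per transcript length) in all, and microglial markers summed to at most 2 TPM. Markers of the oligodendrocyte lineage summed to 1263 to 2477 TPM (median marker 0 to 57 TPM). Those of neuroblasts and neurons summed to 181 to 1384 TPM (median marker 0.5 to 19.5 TPM), and astrocyte markers are given below. WT culture 1 stood apart: its 20 G2 and mitosis genes summed to 521 TPM in RNA and 815 TPM in footprints, against 2309 to 2825 TPM and 2952 to 3587 TPM in the other cultures. The family's genotype comparisons in RNA and footprints, its calls between cultures and its WT ratio are given below with and without it. Correlations, other gene lists and most values of single genes include it.

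Summed over the 77 genes, RNA reached 4689, 4966, 7204 and 7900 TPM in WT cultures 1 to 4 and 6148, 6202, 7507 and 8079 TPM in Fmr1 -/y cultures 1 to 4. The footprint sums were 8528, 10056, 10532 and 11213 TPM in WT and 9882, 10779, 10789 and 11505 TPM in Fmr1 -/y. In both genotypes and both assays, cultures 3 and 4 carried more than culture 1. A level in bulk cultures does not separate less RNA per cell from fewer cells of a type.

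**Figure D1:**
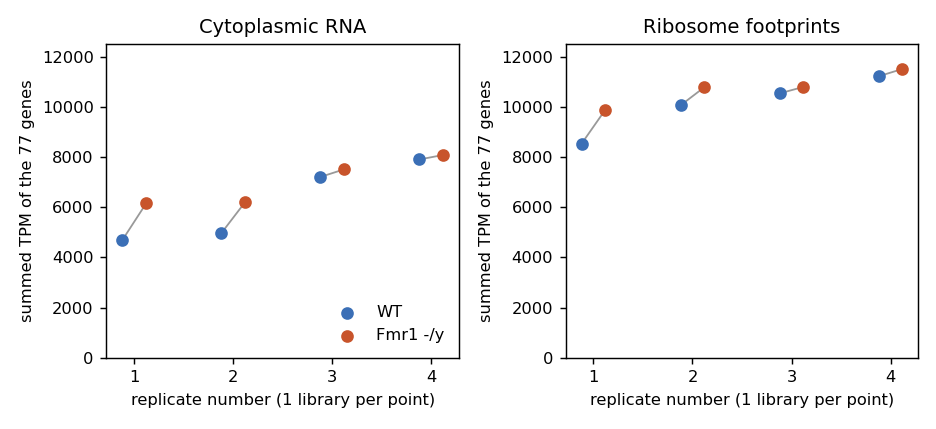
Summed TPM of the 77 mitochondrial ribosomal protein genes (vertical axis) by replicate number (horizontal axis) in RNA on the left and footprints on the right. Each point is 1 library, blue for WT and orange for Fmr1 -/y, and grey lines join the cultures of 1 number. WT RNA 1 and 2, at 4689 and 4966 TPM, are the lowest points on the left, and WT footprint 1, at 8528 TPM, is the lowest on the right.

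Compared per length, in TPM, levels of the single genes differed widely although the assembled ribosome holds most of them at 1 copy. Means are ± SD over 4 WT cultures. In WT RNA the highest means were those of Mrps21 at 195 ± 75.0 TPM, Mrpl12 at 194 ± 93.8, Mrpl51 at 172 ± 68.0, Mrpl30 at 172 ± 52.8, Mrpl17 at 164 ± 56.8 and Mrps33 at 162 ± 35.6. These 6 do not differ from each other beyond their spread. Mrps21 and Mrps33 reached these levels on few WT RNA counts, 23, 18, 54 and 57 for Mrps21 and 56, 52, 71 and 115 for Mrps33. Mrpl12 had 184, 254, 720 and 681. The order in TPM therefore depends on the length scaling. The lowest were Mrpl34 at 32.0 ± 11.6 TPM, Mrps31 at 29.5 ± 3.11, Mrpl50 at 25.0 ± 7.53, Mrpl1, of the L1 stalk on the side where tRNA leaves, at 23.8 ± 7.5, Mrpl47 at 21.2 ± 4.99 and Mrpl33. The last of these had no RNA count in 7 of 8 libraries and 2 counts in the other, which the deposited table lists as 74 TPM.

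In WT footprints the order was led by Mrps33 at 709 ± 212 TPM, Mrpl33 at 512 ± 27.0, Mrps14 at 342 ± 27.6, Mrpl52 at 306 ± 60.8, Mrps6 at 302 ± 26.7 and Mrpl17 at 281 ± 48.3. It ended with Mrps27, a pentatricopeptide repeat subunit, at 45.8 ± 12.0 TPM, Mrpl37 at 43.8 ± 4.35, Mrpl38 at 43.5 ± 9.0, Mrpl46 at 41.5 ± 5.45, Mrps30 at 41.2 ± 5.62 and Mrps2 at 34.5 ± 5.80. Mrpl33, a small bacterial-type protein of the large subunit, thus ranked second of 77 in footprints and last in RNA. Its footprint counts were 800, 827, 723 and 623 in WT and 594, 1231, 525 and 703 in Fmr1 -/y. An RNA count of 0 is still compatible with an expected count of about 3 in that library. In WT culture 4 its 2 RNA counts are listed as 74 TPM, whereas 681 RNA counts of Mrpl12 are listed as 252 TPM. The RNA rank of Mrpl33 rests on these 2 counts and is not a level to set beside the others. Why the RNA libraries hold so few of its reads was not tested.

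The 3 Mrps18 paralogs descend from 1 bacterial protein, S18, and in mammals sit at different places: Mrps18c at the ancestral site and Mrps18b elsewhere in the small subunit, and Mrps18a in the large subunit. In WT RNA they were alike, with 70.2 ± 22.8 TPM for Mrps18a, 58.5 ± 31.9 for Mrps18b and 47.5 ± 15.2 for Mrps18c. In WT footprints Mrps18c, at 201 ± 31.8 TPM, stood above Mrps18a at 77.8 ± 1.50 and Mrps18b at 73.5 ± 22.6. The Fmr1 -/y footprints gave nearly the same values, 207 ± 18.5, 82.8 ± 6.70 and 74.2 ± 19.2 TPM. Of the stalk that recruits translation factors, Mrpl12, the homolog of bacterial L7/L12, had 165 ± 59.3 TPM in WT footprints, above its base proteins Mrpl11 at 91.8 ± 11.1 and Mrpl10 at 54.5 ± 1.73. In bacteria L7/L12 is the ribosomal protein present in several copies. Mrpl12 ranked only 18 in the family in WT footprints, and a link between copy number and level was not tested.

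The comparison of Fmr1 -/y with WT asks which messages change in amount or in ribosome load when FMRP is missing. In RNA, 76 of the 77 genes had enough counts to be tested and 0 passed an adjusted p of 0.05 by edgeR's quasi-likelihood test, against 0.00901% of all 11097 genes tested. None of the 76 had an unadjusted p under 0.05, and DESeq2 and limma-voom also called 0. The log2 fold changes were nevertheless mostly above 0, in 66 of 76 genes, with a median of 0.16, where 51.3% of all genes were above 0 and their median was 0.01. The large subunit had 45 of 49 above 0 (median 0.18) and the small subunit 21 of 26 (median 0.11).

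That shift was not even over the cultures. Between cultures of the same number, Fmr1 -/y was higher for 69 of 76 genes in pair 1 (median log2 ratio 0.54), 67 in pair 2 (0.32), 53 in pair 3 (0.08) and 31 in pair 4 (-0.06). With WT culture 1 left out, 34 of the genes were above 0 and the median was -0.01, and without WT culture 2 it was 41 and 0.01. Without WT culture 3 or 4 it was 69 and 0.28 or 72 and 0.38, and without a Fmr1 -/y culture 45 to 69 were above 0. Without both cultures numbered 1, it was 52 and 0.07, in cultures 1 and 2 alone 70 and 0.41, and in cultures 3 and 4 alone 41 and 0.03. The G2 and mitosis level was low in WT culture 1 but not in WT culture 2, at 2375 TPM in RNA. The part of that level in these values was not tested.

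Among single genes, Mrpl48 had the largest positive RNA fold change of those above 5 CPM. Its levels were 17.5, 17.5, 17.5 and 29.7 CPM in WT and 32.0, 25.7, 31.9 and 27.6 CPM in Fmr1 -/y, a log2 fold change of 0.51 ± 0.25 (SE, n = 4 against 4, edgeR adjusted p = 1). WT culture 4 lies within the Fmr1 -/y range and the other 3 WT cultures lie below it. Mrpl20, Mrpl11 of the stalk base, Mrpl41, Mrpl36 and Mrpl30 followed at 0.50, 0.49, 0.48, 0.48 and 0.36, none past the test.

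At the other end, Mrps14 had 15.1, 6.61, 9.56 and 10.2 CPM in WT RNA and 6.77, 6.47, 8.14 and 8.38 CPM in Fmr1 -/y, and its log2 fold change was -0.47 ± 0.32 (edgeR adjusted p = 1). WT was above Fmr1 -/y in all 4 pairs, but the ranges overlapped through WT culture 2. Next came Mrps9 at -0.34, Mrps26 at -0.23, Mrpl32, a zinc-binding subunit that a mitochondrial AAA protease matures, at -0.12, Mrpl47 at -0.11 and Mrps36 at -0.07. In no member, in RNA or in footprints, did all 4 Fmr1 -/y cultures lie on 1 side of all 4 WT cultures, which 1.28% of all genes tested did in RNA and 1.88% in footprints.

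In footprints all 77 genes were tested and 0 passed, against 0.0349% of 11472 genes. DESeq2 and limma-voom also called 0 of the 77, and 1 gene, Mrpl10, had an unadjusted p under 0.05. The log2 fold changes were above 0 in 64 of 77 genes with a median of 0.10, against 51.2% and 0.01 over all genes. Cytosolic ribosomal proteins were above 0 in 74 of 77 (median 0.09) and the G2 and mitosis genes in 20 of 20 (median 0.48), and the part of the latter in the family's values was not tested. By pair, Fmr1 -/y was higher for 68 genes (median 0.38), 56 (0.09), 52 (0.05) and 22 (-0.09) in pairs 1 to 4. Leaving out WT culture 1 gave 40 above 0 and a median of 0.00, each other single library left out gave 58 to 70 above 0, and leaving out both cultures numbered 1 gave 47 and 0.02. Cultures 1 and 2 alone gave 72 and 0.21, and cultures 3 and 4 alone 27 and -0.04.

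Mrpl10, at the base of the factor-binding stalk, had 39.2, 41.9, 48.9 and 48.0 CPM in WT footprints and 46.0, 50.8, 61.7 and 53.7 CPM in Fmr1 -/y. It was higher in Fmr1 -/y in 4 of 4 pairs, with a log2 fold change of 0.25 ± 0.10, which did not hold after adjustment over all genes (edgeR adjusted p = 0.999). Mrpl48 footprints were 28.6, 48.3, 36.5 and 63.7 CPM in WT and 65.4, 48.5, 71.8 and 40.0 CPM in Fmr1 -/y. Its log2 fold change of 0.36 ± 0.28 was the largest among the footprints, yet culture 4 went the other way.

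Mrpl30 at 0.31, Mrpl15 at 0.24, Mrpl42 at 0.20 and Mrps30 at 0.19 made up the rest of the upper end, and none of these passed the test. The lower end held Mrps14 at -0.19, Mrpl33 at -0.18, Mrps9 and Mrpl44, an RNase III-like subunit, at -0.12 each, Mrps21 at -0.09 and Mrpl35 at -0.07. Mrps14 and Mrps9 thus had negative and Mrpl48 and Mrpl30 positive values in both assays, which come from the same cultures.

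**Figure D2:**
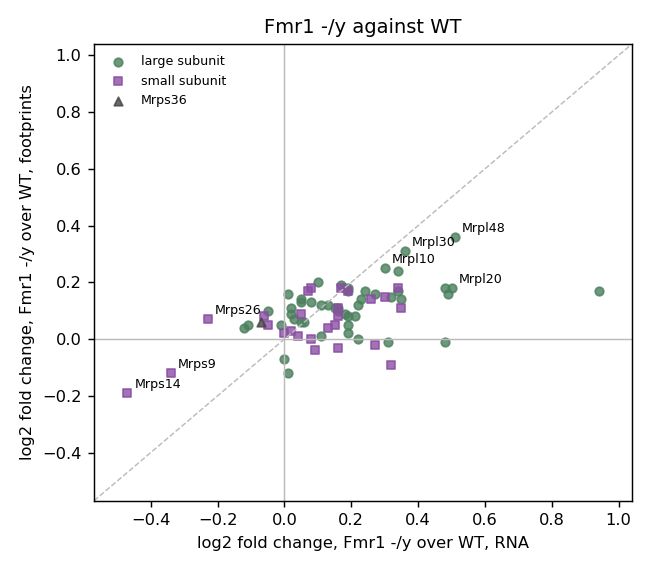
Log2 fold change of Fmr1 -/y over WT in RNA (horizontal axis) and footprints (vertical axis) for the 76 genes tested in both, with circles for the large subunit, squares for the small subunit and a triangle for Mrps36. Grey solid lines mark 0 and the dashed line equal values. Most points lie to the right of and above 0, near medians of 0.16 and 0.10, and none passed the test in either assay.

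Translation efficiency, the footprint change beyond the RNA change, was tested as an interaction over all 16 libraries. Of 76 genes, 0 passed by edgeR, DESeq2 or limma-voom, as did 0% of 10863 genes by edgeR, and none of the 76 had an unadjusted p under 0.05. The log2 changes were above 0 in 31 of 76 genes, with a median of -0.05 against 0.01 over all genes. That count has no stable direction: it was 9 without WT culture 4 and 65 without WT culture 2, with medians of -0.20 and 0.16. They ran from -0.76 ± 0.49 for Mrpl34, which had 3 to 31 RNA counts per library, through -0.48 for Mrpl41, -0.40 for Mrps21, -0.32 for Mrpl11 and -0.31 for both Mrpl20 and Mrpl23. The upper end held 0.30 for Mrps26 and Mrps14, 0.23 for Mrps9, 0.17 for Mrpl32 and Mrpl47 and 0.16 for Mrpl9. Standard errors of 0.26 to 0.56 among these genes leave changes of that size undetectable by this fit. It had no term for the culture that the RNA and footprints share. A fit with the culture as a block called no member either.

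The larger contrast lay between cultures. Footprint libraries of cultures 1 and 2 carry molecular identifiers of 5 nt and those of cultures 3 and 4 of 8 nt, so the identifier and the culture cannot be told apart. The RNA libraries have no such label. Cultures with the same number deviated together across genotypes, so this contrast sets 2 numbers against 2, and p-values that treat the 8 libraries as independent are too small. In RNA, 47 of 76 genes were higher in cultures 3 and 4 than in 1 and 2 and 0 were lower (edgeR, genotype as covariate), where 12.1% of all genes tested were higher. All 76 log2 fold changes were above 0, with a median of 0.73, against -0.03 over all genes. In 55 of 76 genes all 4 libraries of cultures 3 and 4 lay above all 4 of cultures 1 and 2, as 16.6% of genes did.

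In footprints 23 of 77 genes were higher and 0 lower, against 7.56% higher of all genes. Of the 77, 72 were above 0 and the median was 0.40, and 45 had the same order without overlap, against 15.6% of genes. Both assays called 18 of these genes, which is 38.3% of those called in RNA and 78.3% of those called in footprints. Since 61.8% of all members tested were called in RNA, a large overlap follows from that share alone, and the assays share cultures.

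Single libraries carried much of the count. The RNA calls were 30, 25, 20 and 13 without WT culture 1, 2, 3 or 4 and 40, 20, 35 and 22 without Fmr1 -/y culture 1, 2, 3 or 4. The footprint calls fell to 20, 19, 0 and 1 and to 8, 2, 8 and 3 in the same order. The medians moved less, between 0.65 and 0.82 in RNA and between 0.30 and 0.45 in footprints, and each of these fits has 1 library fewer than the main one.

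**Figure D3:**
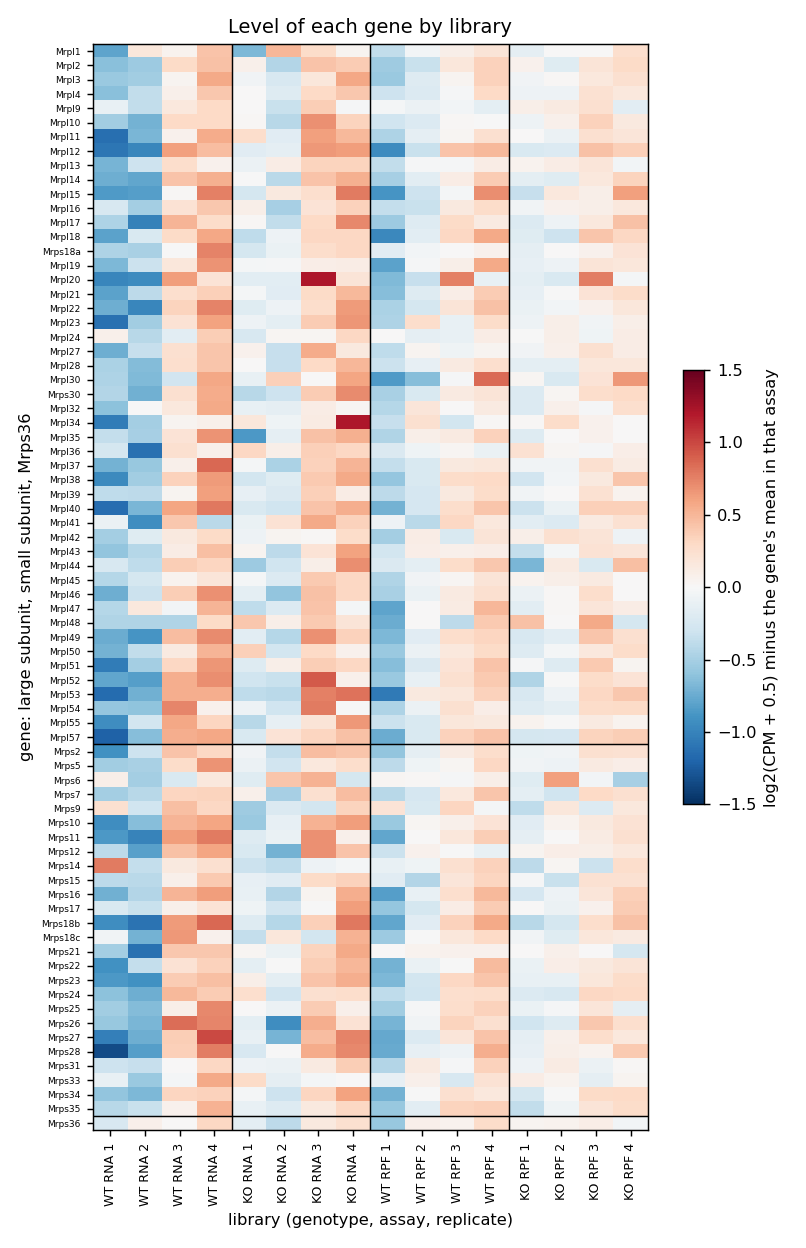
Level of 76 genes (rows, by subunit, leaving out Mrpl33) in 16 libraries (columns, by assay, genotype and replicate), as log2(CPM + 0.5) minus the mean of that gene in that assay, from blue (low) to red (high). Black lines separate groups of libraries and subunits. WT RNA 1 and 2 and WT RPF 1 are blue in most rows, and the columns numbered 3 and 4 are red in most rows of all groups.

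Mrpl12, at chr11:120484637-120488754 (GRCm38), had the smallest p of the family in RNA. Its RNA was 36.1, 39.0, 119 and 107 CPM in WT and 68.7, 70.5, 122 and 120 CPM in Fmr1 -/y, a log2 fold change of 1.19 ± 0.19 for cultures 3 and 4 over 1 and 2 (edgeR adjusted p = 0.00847). Its footprints were 51.5, 78.9, 135 and 140 CPM in WT and 85.1, 86.6, 136 and 128 CPM in Fmr1 -/y (0.85 ± 0.17, edgeR adjusted p = 0.0182). WT cultures 1 and 2 were the lowest in RNA, and the 4 cultures numbered 3 and 4 were close together in both assays.

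Mrps18b, at chr17:35910380-35916440, had the largest fold change of the paralogs. Its RNA was 15.9, 14.0, 48.2 and 56.2 CPM in WT and 26.8, 22.6, 39.4 and 53.6 CPM in Fmr1 -/y (1.35 ± 0.24, edgeR adjusted p = 0.00971). Its footprints rose as well, from 32.5, 49.9, 41.9 and 46.6 CPM in cultures 1 and 2 of both genotypes to 71.1, 83.2, 67.3 and 76.2 CPM in cultures 3 and 4 (0.80 ± 0.16, edgeR adjusted p = 0.0190). Mrps18a rose in RNA by 0.70 ± 0.22 (edgeR adjusted p = 0.0490) and had 0.17 ± 0.10 in footprints (0.254). Mrps18c passed in neither assay, with 0.52 ± 0.34 in RNA (edgeR adjusted p = 0.270) and 0.38 ± 0.14 in footprints (0.0957). Whether the 3 paralogs differ from each other in this was not tested.

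Mrps30, Mrps10, Mrps27 and Mrpl40 were the next by p in RNA, at 0.95, 1.14, 1.29 and 1.18. Mrpl40 rose in footprints too, by 0.69 ± 0.14, and Mrps30 by 0.44 ± 0.11 (edgeR adjusted p = 0.0197 and 0.0357), while Mrps10 at 0.31 and Mrps27 at 0.51 did not pass there. The leading footprint changes were those of Mrps24, the homolog of bacterial S3, at 0.57 ± 0.10, and Mrpl57 at 0.74 ± 0.14 (edgeR adjusted p = 0.0136 and 0.0171). Mrps24 footprints were 33.8, 35.6, 38.2 and 37.1 CPM in cultures 1 and 2 and 52.8, 52.9, 54.9 and 54.4 CPM in cultures 3 and 4, in groups that do not come near each other. In RNA these 2 genes had 0.70 and 0.96 and did not pass (edgeR adjusted p = 0.0714 and 0.0614). Mrps7 passed in both, at 0.67 in RNA and 0.56 in footprints.

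In the rest of the stalk and the decoding centre, RNA rose for Mrpl10 by 0.82, for Mrpl11 by 0.87 and for Mrps12, the decoding-centre homolog of the bacterial protein of streptomycin resistance, by 1.10 (edgeR adjusted p = 0.0147, 0.0383 and 0.0144). Their footprint values of 0.26, 0.34 and 0.06 did not pass. Mrps12 had 9.62, 7.07, 10.8 and 7.63 CPM of RNA in cultures 1 and 2 and 17.5, 19.6, 20.8 and 17.4 CPM in cultures 3 and 4, but 24.1, 31.7, 31.2 and 32.4 against 30.3, 28.0, 32.2 and 33.9 CPM of footprints. Its RNA groups were apart and its footprint groups overlapped, with a footprint log2 fold change of 0.06 ± 0.12. The difference between the assays was not tested.

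Mrpl20 was high in the 2 cultures numbered 3. Its footprints were 66.2, 82.1, 177 and 97.1 CPM in WT and 94.9, 89.1, 179 and 103 CPM in Fmr1 -/y, and its RNA 9.04, 9.22, 28.5 and 21.1 and 16.3, 16.3, 42.8 and 20.9 CPM. The same number led in both genotypes and both assays. Mrps36, the gene that is no ribosome subunit, passed in neither assay, at 0.38 ± 0.30 in RNA and 0.18 ± 0.17 in footprints.

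**Figure D4:**
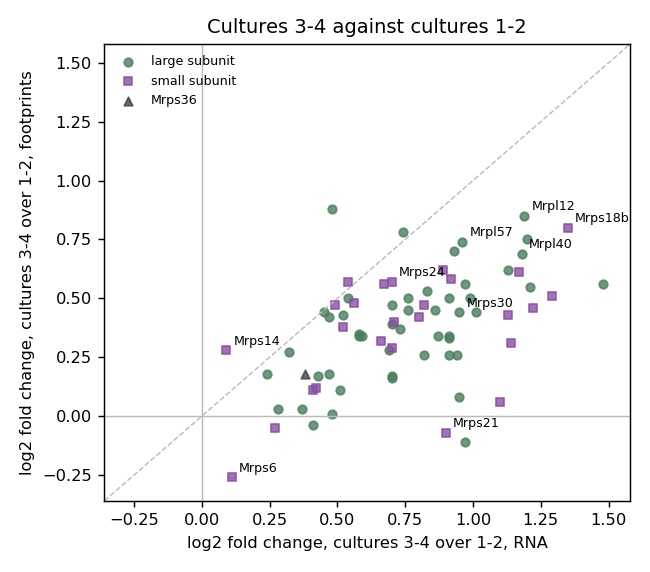
Log2 fold change of cultures 3 and 4 over cultures 1 and 2 in RNA (horizontal axis) and footprints (vertical axis) for 76 genes, with circles for the large subunit, squares for the small subunit and a triangle for Mrps36. The dashed line marks equal values. All points lie to the right of 0, most lie under the dashed line, and Mrpl12 and Mrps18b are far out on both axes, at 1.19 and 0.85 and at 1.35 and 0.80.

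The genes moved with each other across libraries. Over the 8 RNA libraries the median correlation between pairs of the 76 genes was 0.80, and 57 of the genes correlated above 0.8 with the mean of the others, as did 1884 of 11021 other genes with the mean of the family. Over the 8 footprint libraries the median was 0.75 and 54 of 77 genes were above 0.8, beside 1847 of 11395 other genes. The pattern was not the family's own: 66 of 75 cytosolic ribosomal proteins in RNA and 73 of 77 in footprints were above 0.8, with median correlations to the family's mean of 0.95 and 0.97, where the members had 0.92 in each. The mean pairwise correlation was 0.72 in RNA and 0.61 in footprints, against 0.00 over all genes in each, but the points share the same 8 cultures, and cultures 1 and 2 differ from 3 and 4, so these values describe that split again. The exceptions were Mrps14 in RNA at -0.06 and, in footprints, Mrps21 at -0.18, Mrps6 at -0.17, Mrpl9 at -0.10 and Mrps9 at -0.01.

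Other gene groups were set beside the same all-gene shares, 12.1% higher in RNA and 7.56% in footprints. In a list of 7 further mitoribosomal proteins, which also holds Mrpl57, 3 rose in RNA and 3 in footprints, including Ict1, a release factor built into the large subunit (0.69 and 0.46). Among 13 translation factors 4 rose in each assay, such as the elongation factor Gfm1 (0.83 in RNA, 0.78 in footprints). Of 20 mitochondrial aminoacyl-tRNA synthetases 11 rose in RNA and 6 in footprints. Of 25 assembly and rRNA modification genes 10 and 5 rose, among them Noa1 and C1qbp. The transcription and mRNA stability list had 7 and 10 of 16, with the mitochondrial RNA polymerase Polrmt at 1.57 in RNA and 1.41 in footprints. Cytosolic ribosomal proteins rose for 61 of 75 and 48 of 77 genes, while subunits of oxidative phosphorylation, the machinery that mitoribosomes serve, rose for 24 of 71 and 3 of 76, the last being 3.95% and below the share of all genes. Among 15 tested regulators of mitochondrial gene expression, 2 were higher and 3 lower in RNA and 1 was higher in footprints (13.3% and 6.67% higher), near the all-gene shares.

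Astrocyte markers went the other way. All 8 markers of that list together summed to 1561 to 3446 TPM in the RNA of cultures 1 and 2 and to 592 to 892 TPM in that of cultures 3 and 4, and to 1468 to 3860 and 601 to 928 TPM in footprints. Of the markers tested, 5 of 7 fell in RNA and 6 of 8 in footprints, with Gfap RNA at 54 to 136 TPM in cultures 1 and 2 and 2 to 4 TPM in cultures 3 and 4. Aqp4 was listed at 0 counts in 2 RNA libraries and S100b and Gja1 in 1 each. The stem cell list had 2 of 9 tested genes falling in RNA and 3 of 9 in footprints, and Hes5, a Notch target, had 54 to 175 TPM of RNA in cultures 1 and 2 and 3 to 14 TPM in 3 and 4. The part of cell state or culture makeup in the change of the ribosomal genes was not tested.

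The promoters of these genes were read because so many rose together. Promoter sequences from RefSeq (GRCm38.p6) were at hand for 68 of the 77 genes, each from 250 bases before to 50 bases after the start, and motifs were searched on both strands, with no motif containing another. The core letters bound by ETS factors such as GABPA, CCGGAAG, stood in 35.3% of the 68, in 19.1% of the 8529 genes tested in RNA that have an entry and in 9.12% of all entries. AAGATGG, the core of YY1, stood in 19.1%, 7.57% and 6.48%, and CGCATGCG, the core of NRF1, in 10.3%, 4.47% and 1.91%. CCAAT was about as frequent in all 3 sets (39.7%, 39.5% and 37.9%), CACGTG stood in 7.35%, 10.5% and 7.24%, and TATAAA in 5.88%, 6.0% and 14.2%. These are letter matches and not binding sites.

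Shown here are the 150 bases before the start of the gene with the smallest p and of the 2 genes with the smallest RNA p among those called in both assays with an ETS core in that stretch. They were chosen after their values were seen. Capitals mark matches to the 6 motifs or their reverse complements. Mrpl12 lies at chr11:120484487-120484636 (plus strand), Mrps26 at chr2:130563607-130563756 (plus strand) and Mrpl52 at chr14:54426759-54426908 (plus strand).
Mrpl12: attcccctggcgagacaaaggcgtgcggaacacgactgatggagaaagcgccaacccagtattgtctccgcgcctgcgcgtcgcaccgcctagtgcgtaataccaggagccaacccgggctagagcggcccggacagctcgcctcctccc
Mrps26: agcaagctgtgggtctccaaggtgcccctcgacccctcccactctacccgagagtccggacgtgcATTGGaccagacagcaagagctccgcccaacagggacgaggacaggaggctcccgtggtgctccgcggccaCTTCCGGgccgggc
Mrpl52: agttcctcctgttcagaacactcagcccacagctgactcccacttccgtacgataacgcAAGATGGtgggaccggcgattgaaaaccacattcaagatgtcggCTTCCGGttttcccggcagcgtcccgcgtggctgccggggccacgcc
Mrpl12 holds no match in the stretch. Mrps26 has the ETS core, in reverse complement, at -14 and a CCAAT box at -85 from the start, and Mrpl52 the ETS core at -47 and the YY1 core at -91. Mrps26 RNA was 16.1, 14.9, 21.8 and 12.4 CPM in cultures 1 and 2 and 43.7, 40.4, 35.5 and 28.3 CPM in cultures 3 and 4 (1.17 ± 0.24, edgeR adjusted p = 0.0134). Mrpl52 RNA was 5.11, 4.92, 7.28 and 7.14 CPM in cultures 1 and 2 and 13.5, 15.0, 17.6 and 9.6 CPM in cultures 3 and 4 (1.21 ± 0.29, edgeR adjusted p = 0.0201).

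The comparison of WT footprints with WT RNA asks which messages have more footprint counts for their RNA counts than the rest. Of the 74 genes tested (Mrpl33, Mrpl34 and Mrpl53 had too few RNA counts), 64 had more footprints than RNA and 1, Mrpl37, fewer (edgeR with the replicate number as a block), where 36.4% of 9993 genes were higher. The median log2 ratio was 1.30 against 0.03 over all genes. Without WT culture 1, 60 of 75 genes were higher and 1 lower, with a median of 1.26 against -0.03 over all genes. The ratio rests on counts, so it is not ribosome load alone. It compares the library preparations as well: a kit amplified the RNA, whereas footprints were built into libraries by ligation. Footprints lie on coding sequence, and which part of each transcript the RNA counts cover was not tested. Counts per TPM also differed by gene between the assays. In WT culture 4, Mrps36 had 40 RNA counts at 87 TPM and 637 footprint counts at 247 TPM. Mrpl37 had 1198 RNA counts at 148 TPM and 655 footprint counts at 47 TPM there.

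The highest ratios were those of Mrpl50 at 3.97 ± 0.18, Mrps14 at 3.75 ± 0.23, Mrpl52 at 3.66 ± 0.22, Mrps36 at 3.64 ± 0.18, Mrps18c at 3.44 ± 0.24 and Mrpl13 at 3.41 ± 0.18, all with an edgeR adjusted p of at most 9.8e-07. Mrpl50 had 3.54, 4.61, 6.76 and 8.92 CPM in WT RNA and 54.5, 76.0, 89.8 and 98.6 CPM in WT footprints. Mrps14 had 15.1, 6.61, 9.56 and 10.2 CPM in RNA and 102, 105, 130 and 140 CPM in footprints. Every footprint library of these 2 genes was above every RNA library by several fold.

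The lowest were Mrpl37 at -0.50 ± 0.19 (edgeR adjusted p = 0.0335), Mrpl38 at -0.29, Mrps5 at -0.21, Mrps9 at -0.02, Mrpl2, a core protein of the peptidyl transferase region, at 0.02, and Mrps30 at 0.11. Mrpl37 had 62.7, 69.2, 109 and 188 CPM in RNA and 48.9, 53.7, 69.4 and 70.8 CPM in footprints, and its call was lost without WT culture 3 or 4 (edgeR adjusted p = 0.0937 and 0.174) and without the block (0.185). Mrps15, Mrps2, Mrpl10 and Mrps27 also did not pass. Without the block 49 genes of the family were higher and 0 lower, and over all genes 2272 were higher and 2211 lower in place of 3636 and 3439.

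The ratio went with transcript length. A relative length was taken from the deposited tables, as the count per TPM of each gene in footprint libraries divided by the median gene, for genes with at least 10 TPM there. The 77 genes had a median relative length of 0.43, and the highest ratios belonged to short ones such as Mrps36 (0.193), Mrpl52 (0.243) and Mrps14 (0.262). Genes of like length still differed: Mrpl50 (0.343) had a ratio of 3.97 and Mrpl43 (0.344) one of 0.78. Among the shortest 25% of the tested genes with such a length, 2063 genes, 52 of 54 family members were higher (96.3%), as were 75.1% of the other genes there. In the next 25% it was 12 of 19 (63.2%) against 41.9%. On the log2(TPM + 1) scale, which divides by length, 35 of 74 were higher and 7 lower with a median of 0.37. Over all genes 1746 were higher and 5062 lower with a median of -0.46. Among genes of like length the gap on that scale was smaller. In the shortest 25%, 53.7% of members and 38.4% of the other genes were higher, with medians of 0.44 and 0.18. In the next 25% it was 31.6% and 17.6%, with medians of 0.10 and -0.30. Under every setting tried, 68 to 72 of the 74 to 77 genes tested lay above the median of all genes.

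**Figure D5:**
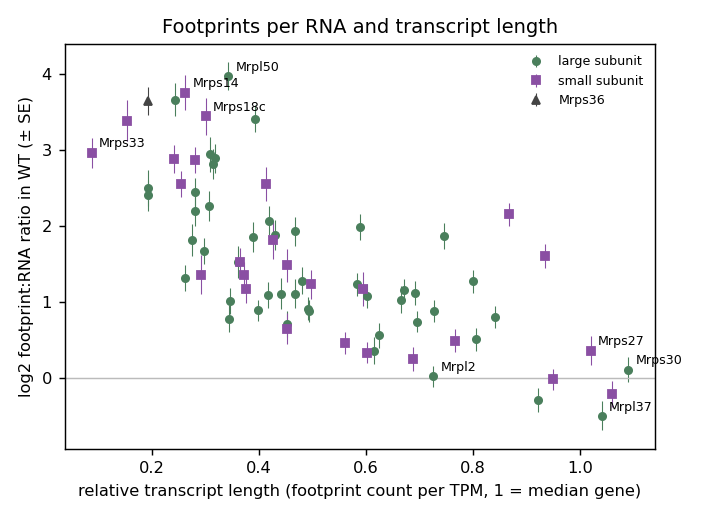
Log2 ratio of footprints to RNA in WT (vertical axis, ± SE over 4 cultures) against relative transcript length (horizontal axis, footprint count per TPM, where 1 is the median gene) for 74 genes, with circles for the large subunit, squares for the small subunit and a triangle for Mrps36. The ratios run from 3.97 (Mrpl50) among the short transcripts to -0.50 (Mrpl37) among the longest, and differ widely at like length.

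In the Fmr1 -/y cultures 66 of 76 genes had more footprints than RNA and 2 fewer, with a median ratio of 1.24. Other groups of short mRNAs had like values in WT, with medians of 1.28 for cytosolic ribosomal proteins (59 of 75 higher) and 2.12 for oxidative phosphorylation subunits (65 of 68). The median relative lengths of these lists were 0.322 and 0.301. The mitochondrial aminoacyl-tRNA synthetases, at a median relative length of 1.33, had a median ratio of -0.31 (3 of 20 higher and 7 lower). Between genotypes, none of these lists had a gene past the test in RNA, footprints or translation efficiency. The mitochondrial elongation factor Tufm had mean RNA levels of 143 TPM in WT and 154 TPM in Fmr1 -/y.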

How the data were processed

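The members and gene lists were chosen with earlier results of these data known. The authors deposited RSEM expected counts per gene, which are whole numbers and were rounded as such, and TPM rounded to whole numbers, which are treated as a score, per the values and the submitters' processing notes. The tools listed there, without roles, include RSEM 1.2.11, TopHat2 2.0.9, Bowtie2 2.1.0, bedtools 2.22.0 and cutadapt 1.7.1, besides SAMtools, with the build mm10. The handling of strand and of duplicate identifiers is not given in the sources used here. Values of genes with near-identical copies or overlapping neighbours are uncertain, since reads may have been divided between them. Of 20436 rows, 27 named no gene and were left out (0.244% to 0.422% of counts).

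Tests used edgeR's quasi-likelihood fit (version 4.0.16 under R 4.3.3, TMM, filterByExpr, glmQLFTest, two-sided, Benjamini-Hochberg, threshold 0.05), alternatively DESeq2 1.42.0 and limma-voom 3.58.1. RNA was fitted on genotype, and footprints on genotype and identifier length. Translation efficiency was fitted on the interaction over all libraries without a culture term, and WT ratios with the replicate number as a block. CPM are TMM-scaled. The scripts were tested on simulated data. Same-numbered cultures deviated together (correlations of 0.497 to 0.62 in RNA and 0.391 to 0.555 in footprints). Those of unlike numbers had -0.553 to 0.379 in RNA and -0.471 to 0.456 in footprints. The ranges are apart in RNA and overlap in footprints, so the pairing is read from the RNA values and not from a label. P-values cover the spread between these cultures. Named genes were the 6 highest and lowest fold changes, levels and ratios, members past the test, and a fixed set of 9. Gene coordinates come from RefSeq GRCm38.p6. Protein sequences were not used here.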

Additional observations from a re-analysis of the deposited data

Results flagged for a closer look

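In all, 100 groups of 4 libraries were searched for a sample far from the others. Chance gives about 1 flag in 20 groups, and 4 of the 100 groups had one, which is near that level. Mrpl48 RNA in WT culture 4 was 29.7 CPM, against 17.5 CPM in each of the other 3 WT cultures. Mrpl33 RNA in WT culture 4 was 0.313 CPM, which is 2 counts, against 0 in the others. The 20 G2 and mitosis genes summed to 521 TPM in the RNA of WT culture 1, against 2375 to 2651 TPM in the other WT cultures, and to 815 TPM in its footprints, against 2952 to 3345 TPM. The levels of the ribosomal protein genes in that culture are given above with the results they touch.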

How the results depend on the processing

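No alternative called a family member between genotypes in RNA, footprints or translation efficiency. The fits without both cultures numbered 1, with the culture as a block in translation efficiency, by length class and with a pseudocount of 0.5 were chosen after seeing the data. Where values moved, the cause was not tested. Over all genes, the 1 RNA call between genotypes became 20 with DESeq2 and 0 with limma-voom, with the replicate block, in cultures 1 and 2 or 3 and 4 alone and without pair 1. The 4 footprint calls became 82 with DESeq2, 0 with the replicate block, in cultures 1 and 2 alone and without pair 1, and 2 in cultures 3 and 4 alone. Leaving out 1 library gave 0 to 1 and 0 to 14. The block changed no call of a member, and with it the members' medians were 0.22 in RNA, 0.11 in footprints and -0.08 in translation efficiency. Leaving out 1 library gave members' medians of -0.01 to 0.38 in RNA, 0.00 to 0.17 in footprints and -0.20 to 0.16 in translation efficiency, and the translation efficiency count above 0 moved by over 1.5 times in 7 of 8 such fits.

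Between cultures, DESeq2 called 37 members and 3398 genes in footprints, and 15 members were called with no filter on low counts. Leaving out 1 library gave 0 to 20 members and 319 to 2222 genes in footprints, and 13 to 40 members and 1091 to 2855 genes in RNA. In the WT ratio, 4483 genes passed with no replicate block, and on the log2 TPM scale 42 members passed with a median of 0.37 at either pseudocount.

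Small values changed sign. In RNA between genotypes, Mrps26 was 0.13 and Mrpl32 0.14 in cultures 1 and 2 alone, and Mrps36 0.03 in 3 and 4 alone. In footprints, Mrpl30 was -0.05 and Mrpl15 -0.02 in 3 and 4 alone, Mrps21 0.02 and Mrpl35 0.07 in 1 and 2 alone, and Mrps9 0.02 without pair 1. In translation efficiency, Mrps26 was -0.02 and Mrpl32 -0.08 in 1 and 2 alone, and Mrps14 -0.06 and Mrpl47 -0.16 in 3 and 4 alone. In the footprint to RNA ratio, Mrps9 was 0.19 in Fmr1 -/y cultures, Mrpl2 -0.02 there, -0.01 with RLE scaling, DESeq2, a mean of at least 5 CPM or no block and -0.61 in log2 TPM, and Mrps30 -0.38 and -0.39 in log2 TPM with pseudocounts of 1 and 0.5. Without 1 library, the ranges were -0.29 to 0.09 for Mrpl32, -0.30 to 0.07 for Mrpl47, -0.46 to 0.04 for Mrps26 and -0.19 to 0.04 for Mrps36 in RNA, -0.20 to 0.01 for Mrpl35 and -0.32 to 0.02 for Mrpl44 in footprints, -0.01 to 0.35 for Mrpl32 in translation efficiency, and -0.10 to 0.07 for Mrpl2, -0.11 to 0.23 for Mrps30 and -0.14 to 0.05 for Mrps9 in the ratio. RNA counts were low, at a median of 82 to 240 per member. RNA standard errors were 0.48 for Mrps27 with 141 to 720 counts per library, 0.30 for Mrpl13 with 34 to 93 and 0.56 for Mrpl34 with 3 to 31. The part of the counts and of the spread between cultures in these errors was not tested.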
